A study of Mus musculus with 16 samples.

Results

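The genes described here are the 4 Notch receptors (Notch1, Notch2, Notch3 and Notch4), 3 of their ligands (Dll4, Jag1 and Jag2) and 3 target genes of the pathway (Hey1, Heyl and Hes1). A gene was taken through the probe sets whose annotation held its symbol and no other. All 10 genes were found with 1 such probe set each, and all 10 passed the filter on dim probe sets, so they are 10 of the 13601 genes tested. The values are log2 expression from 1 array per mouse, made with RMA by the authors, and a difference of 1 is a doubling of signal. Levels of different genes were not set against each other, because they rest on different probes.

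RNA came from whole gastrocnemius, a calf muscle, of 16 male FVB/n mice that were 16 weeks old and had eaten a high-fat diet for 8 weeks. Of the diet, 58% was fat, with carbohydrate at 25.5% and protein at 16.4%. All mice carried floxed alleles of FoxO1, FoxO3 and FoxO4 and, at 4 to 5 weeks of age, were given 3 injections of pI:pC, a double-stranded RNA that switches on the interferon-responsive Mx1 promoter. The 8 controls were littermates without the Cre transgene (MxCre-;FoxO1,3,4L/L), which the labels call wild type, and the 8 deletion mice carried it (Mx1-Cre+;FoxO1,3,4L/L). The study describes the deletion as directed to the endothelium, but the Mx1 promoter also works in other cells that respond to interferon. Cre was present in every deletion mouse and in no control, so an effect of Cre itself and the loss of the 3 FoxO genes cannot be told apart.

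The Notch pathway passes a signal between touching cells. A ligand of the Delta or Jagged family on one cell binds a Notch receptor on the next, the receptor is cut by ADAM10 and then by gamma-secretase, and the freed intracellular part enters the nucleus, joins RBPJ and switches on repressors of the Hes and Hey families. In blood vessels, Dll4 and Notch1 limit the number of sprouting tip cells, Jag1 opposes Dll4 in the sprouting front, and Notch3 and Heyl belong to the pericytes and smooth muscle around the vessel. In skeletal muscle, Notch signalling through Hey1 and Heyl also keeps satellite cells, the stem cells of the fibre, from differentiating.

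The arrays were alike in scale, with medians of 4.43 to 4.61 and correlations between arrays of 0.961 to 0.988 over the genes tested. Markers of fast and slow fibres were high in every mouse, with a mean over 10 genes of 10.6 to 11.9 in controls and 11.4 to 12.0 in deletion mice. The targeted genes were not lower as a group in this whole-muscle RNA: limma differences, deletion minus control, were 0.07 for Foxo1 (SE 0.12, adjusted p = 0.804), 0.50 for Foxo3 (SE 0.14, adjusted p = 0.0762) and -0.24 for Foxo4 (SE 0.10, adjusted p = 0.236). The exons these probe sets cover are unknown here, and they do not check the deletion. In 6 mice, controls 2 and 7 and deletion mice 1, 2, 4 and 5, the liver transcript Alb stood at 10.02 to 11.68, whereas it was at most 8.18 in the other 10. Results are therefore also given without those 6 mice, a choice made after the values were seen.

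No member of the family passed limma's adjusted p under 0.05 over all genes tested. By that rule 249 of the 13601 genes (1.83%) changed, 208 higher (1.53%) and 41 lower (0.301%). At an unadjusted p under 0.05, 4 of the 10 members were higher in deletion mice (Notch1, Notch2, Notch3 and Jag1) and 1 was lower (Hey1), which is 5 of 10 against 17.3% of all genes. The background in each direction was 10.5% for higher and 6.82% for lower values. The median difference of the 10 members was 0.11, against 0.0007 over all genes, and 8 of the 10 differences were above 0, against 50.2% of all genes. With arrays centred on their medians, 6 of 10 were above 0 and the median of the members was 0.055. Centring moved the difference of every gene by the same -0.053, so the members' distance from the median of all genes did not change. In 0 of the 10 members were the control and deletion mice fully apart, as they were for 0.353% of all genes. In bulk RNA such as this, a change in the number of cells of a type and a change of RNA per cell cannot be told apart.

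**Figure D1:**
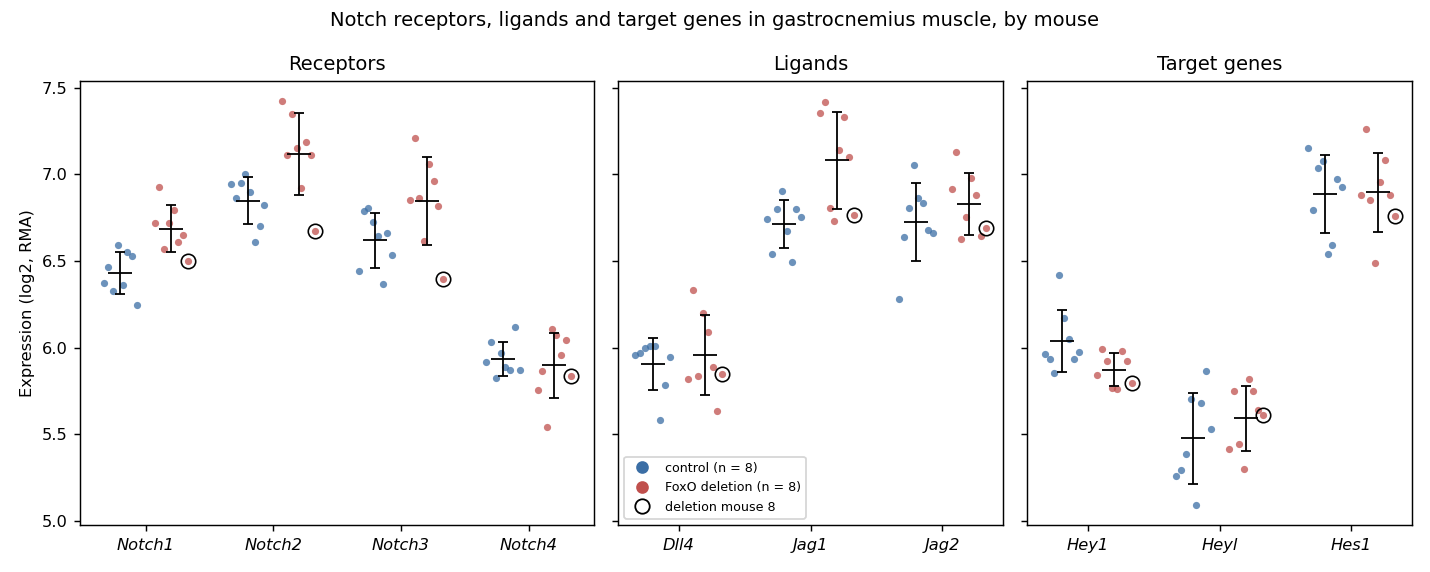
Expression (log2, RMA) of the 10 Notch genes in each of 8 control and 8 deletion mice, in panels of receptors, ligands and target genes. Points are mice, the horizontal line and bars are the mean and SD of the group, and the ring marks deletion mouse 8, which lies lowest of its group in Notch1, Notch2 and Notch3.

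The receptors Notch1, Notch2 and Notch3 and the ligand Jag1 were the members with higher values in deletion mice, and the promoter sequences of 3 of them are shown with that of Dll4, the ligand whose groups lay close together. These are the 250 bases before the annotated start in RefSeq (GRCm38.p6), written 5′ to 3′ on the strand of the gene, with every GC box in capitals. A GC box is the hexamer GGGCGG, or CCGCCC where it lies on the other strand, and is the site of Sp1-type factors at many promoters. The windows are chr2:26503823-26504072 (minus strand) for Notch1, chr3:98013288-98013537 (plus) for Notch2, chr2:137116521-137116770 (minus) for Jag1 and chr2:119325534-119325783 (plus) for Dll4.
Notch1: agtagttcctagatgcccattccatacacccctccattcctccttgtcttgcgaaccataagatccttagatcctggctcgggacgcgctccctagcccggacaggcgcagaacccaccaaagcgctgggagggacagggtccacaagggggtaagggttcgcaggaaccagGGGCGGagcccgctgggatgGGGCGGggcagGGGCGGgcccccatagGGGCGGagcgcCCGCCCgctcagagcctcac
Notch2: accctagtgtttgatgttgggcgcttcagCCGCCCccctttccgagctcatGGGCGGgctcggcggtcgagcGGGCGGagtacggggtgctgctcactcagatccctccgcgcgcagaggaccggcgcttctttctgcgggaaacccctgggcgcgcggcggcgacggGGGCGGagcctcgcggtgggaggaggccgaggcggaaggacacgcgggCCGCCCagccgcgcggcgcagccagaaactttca
Jag1: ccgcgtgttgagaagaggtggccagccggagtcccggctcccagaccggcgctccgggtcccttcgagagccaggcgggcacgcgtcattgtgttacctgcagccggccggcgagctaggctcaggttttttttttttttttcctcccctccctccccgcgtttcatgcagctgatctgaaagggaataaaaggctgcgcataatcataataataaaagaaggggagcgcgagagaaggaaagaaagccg
Dll4: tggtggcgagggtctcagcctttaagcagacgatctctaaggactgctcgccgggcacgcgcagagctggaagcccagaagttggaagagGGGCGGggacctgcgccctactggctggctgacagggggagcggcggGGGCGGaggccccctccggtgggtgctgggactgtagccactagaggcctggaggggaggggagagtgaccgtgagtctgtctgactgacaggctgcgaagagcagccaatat
The Notch1 and Notch2 windows hold 5 GC boxes each, the Dll4 window 2 and the Jag1 window 0, so the members with higher values did not share this feature.

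Of the 10 members, 7 had a promoter in the RefSeq table (all but Hey1, Heyl and Hes1). A GC box was found in 5 of these 7 windows, Notch3 holding 4 and Jag2 holding 5, against 32.7% of the 32851 windows of the same length. Their G and C content ran from 57.2% in Jag1 to 87.2% in Jag2, and the median of all windows was 52.4%. The letters TGGGAA (the core that RBPJ binds), the longer GTGGGAA that contains them, and GTAAACA (a FoxO-type site) were searched on both strands. Each was in 0 of the 7 member windows, and they were in 21.6%, 5.42% and 3.17% of all windows. That says only that these letters are not in these 250 bases.

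Notch1, the receptor with the widest role in vessels and muscle stem cells, had the smallest p of the 10. Control mice ran from 6.24 through a median of 6.42 to 6.59, and deletion mice from 6.50 through 6.69 to 6.93. All 8 deletion mice lay above the control median and 6 lay above every control, so the groups overlapped only through 2 deletion mice. The means were 6.43 ± 0.12 and 6.69 ± 0.13 (SD, n = 8 each), a 1.19-fold higher signal. The difference was 0.26 (SE 0.07, 95% interval 0.11 to 0.40), with a limma adjusted p of 0.0706 and an exact permutation p of 0.00155, unadjusted and two-sided, over the 12870 splits of the mice.

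Notch2, the receptor that shares much of its signalling with Notch1, ran from 6.61 through 6.88 to 7.00 in controls and from 6.67 through 7.13 to 7.42 in deletion mice. Again 6 deletion mice lay above every control, and deletion mouse 8 was the lowest of its group. The difference in Notch2 was 0.27 (SE 0.09, limma adjusted p = 0.153, exact permutation p = 0.0166, unadjusted), and the SD among deletion mice was 0.24 against 0.13 among controls.

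Notch3, the receptor of mural cells, spread widely in both groups, from 6.37 through 6.65 to 6.80 in controls and from 6.40 through 6.86 to 7.21 in deletion mice. Although 6 deletion mice exceeded every control, deletion mouse 8 lay near the bottom of the control range. Its difference of 0.23 (SE 0.10) had a limma adjusted p of 0.255 and an exact permutation p of 0.0511.

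Notch4, a receptor largely restricted to endothelium, differed in pattern by its values: it ran from 5.83 through 5.90 to 6.12 in controls and from 5.54 through 5.91 to 6.11 in deletion mice. The deletion range took in most of the control range, and no deletion mouse lay above it. The difference was -0.04 (SE 0.08, 95% interval -0.20 to 0.13, limma adjusted p = 0.847). Whether Notch4 changed less than the other receptors was not tested.

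Among the ligands, Jag1 had the largest difference of the 10 members. Control mice ran from 6.49 through 6.75 to 6.90 and deletion mice from 6.73 through 7.12 to 7.42. In Jag1, 5 deletion mice lay above every control, while deletion mice 3, 4 and 8 stayed within the control range. The difference of 0.37 (SE 0.10, 95% interval 0.15 to 0.59) is a 1.29-fold higher signal, with a limma adjusted p of 0.0817 and an exact permutation p of 0.00761, unadjusted. Deletion mice varied more, with an SD of 0.28 against 0.14 in controls.

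Dll4, the tip cell ligand, ran from 5.58 through 5.96 to 6.01 in controls and from 5.63 through 5.87 to 6.33 in deletion mice. The lower median and the wider top in deletion mice go together: 3 deletion mice (2, 4 and 5) lay above every control and the other 5 below the control median. The mean difference was 0.05 (SE 0.09, 95% interval -0.15 to 0.25, limma adjusted p = 0.834), so a change up to about the size of that in Notch1 lies inside its interval. Those 3 mice are also among the 6 with high Alb, and without the 6 the Dll4 difference was -0.11 (SE 0.10). Deletion mouse 1, also with high Alb, stood at 5.82 in Dll4, and controls 2 and 7 stood at 5.97 and 5.79. Jag2, a ligand of the same family as Jag1, ran from 6.28 through 6.74 to 7.05 in controls and from 6.63 through 6.82 to 7.13 in deletion mice, a difference of 0.10 (SE 0.10, limma adjusted p = 0.635).

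Of the target genes, Hey1 was the one with lower values in deletion mice. Its controls ran from 5.85 through 5.97 to 6.42 and its deletion mice from 5.76 through 5.88 to 5.99, so that 4 deletion mice lay below every control. The difference was -0.16 (SE 0.08, 95% interval -0.32 to -0.01), with a limma adjusted p of 0.269 and an exact permutation p of 0.0246, unadjusted. Control 4 was the highest of all 16 mice in Hey1, and without it the difference was -0.11.

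Heyl, the Hey factor of mural and satellite cells, had controls from 5.09 through 5.46 to 5.86 and deletion mice from 5.30 through 5.62 to 5.82, the latter lying wholly inside the control range. Hes1, the most widely used target of the pathway, had controls from 6.54 through 6.95 to 7.15 and deletion mice from 6.49 through 6.88 to 7.26. The differences were 0.12 for Heyl (SE 0.11, limma adjusted p = 0.617) and 0.01 for Hes1 (SE 0.11, 95% interval -0.21 to 0.23, limma adjusted p = 0.980). The Hes1 difference was -0.04 both with arrays centred on their median and after quantile normalization, so it has no settled sign.

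**Figure D2:**
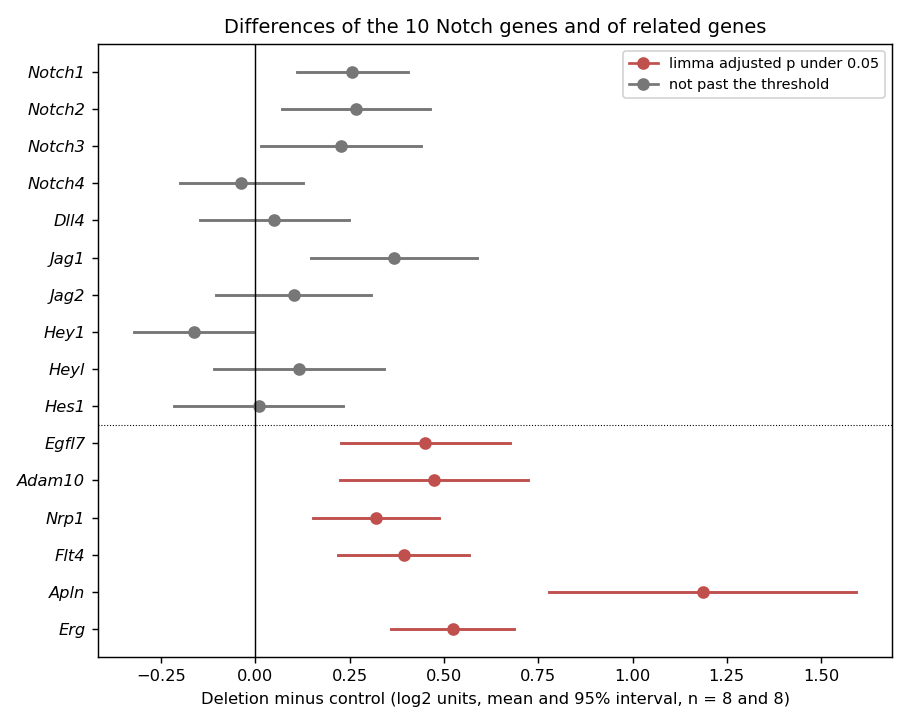
Difference of each gene, deletion minus control, in log2 units with its 95% confidence interval (8 against 8 mice), for the 10 Notch genes above the dotted line and 6 related genes below it. The 10 Notch genes are grey, since none passed an adjusted p under 0.05. The 6 related genes, from Nrp1 at 0.32 to Apln at 1.19, are red because they were chosen as genes that passed. They are the 5 called among the 76 other pathway genes tested, and the endothelial marker Erg.

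Among the fits that left out 1 mouse, calls of these members depended on deletion mouse 8. It was the lowest of its group in Notch1, Notch2 and Notch3, so leaving it out had to raise those 3 differences. It lay above every control in 0 of the 4 genes Notch1, Notch2, Notch3 and Jag1, and above the control mean in 3 of the 10 members. Deletion mice 1, 2, 6 and 7 exceeded every control in all 4 of those genes, mouse 5 in 3 of them, and mice 3 and 4 in 2 each. Without deletion mouse 8, Notch1 (0.28, SE 0.07, limma adjusted p = 0.0278), Notch2 (0.33, SE 0.08, adjusted p = 0.0254) and Jag1 (0.41, SE 0.10, adjusted p = 0.0294) were higher. Those 3 of 10 compare with 3.96% of all genes called higher in the same 15 mice. Over all genes the calls in either direction went from 249 with all 16 mice to 680 in that fit. Notch3 had a difference of 0.29 there (SE 0.09, adjusted p = 0.0665). The fits that left out 1 of the other 15 mice called none of the members, and over the 16 such fits the adjusted p ran from 0.0278 to 0.132 for Notch1, from 0.0254 to 0.248 for Notch2 and from 0.0294 to 0.158 for Jag1.

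At the looser limit of adjusted p under 0.10 with all 16 mice, Notch1 and Jag1 were called higher, 2 of 10 against 2.8% of all genes. Without the 6 mice with high Alb, which left 6 controls and 4 deletion mice, the differences were 0.18 for Notch1 (SE 0.09), 0.21 for Notch2 (SE 0.12), 0.17 for Notch3 (SE 0.12) and 0.27 for Jag1 (SE 0.12), and none passed. Hey1 was at -0.17 (SE 0.11) in that fit. Each of the 5 differences kept its sign.

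**Figure D3:**
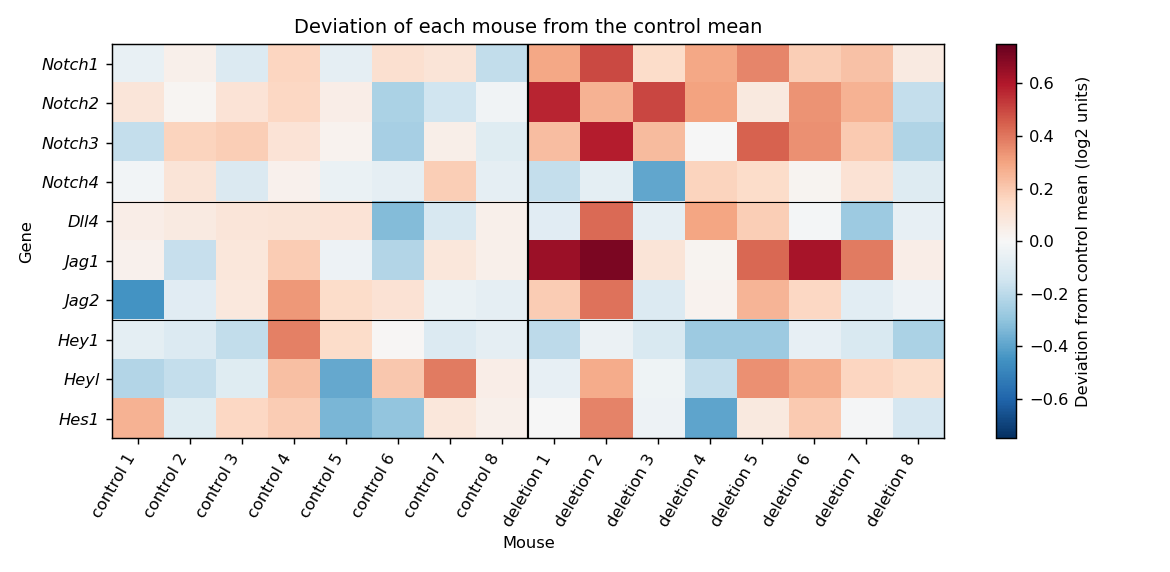
Deviation of each mouse from the control mean of the gene (log2 units, colour scale from blue for lower to red for higher), with genes in rows and the 8 control and 8 deletion mice in columns. Deletion mouse 2 holds the highest value of all 16 mice in 6 of the 10 genes, and deletion mouse 8 is pale or blue in most rows.

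Deletion mouse 2 was the highest of the 16 in 6 members (Notch1, Notch3, Dll4, Jag1, Jag2 and Hes1), and its mean deviation over the 10 genes was 0.34. Among controls, mouse 4 lay above the control mean in all 10 members and was the highest control in Notch1, Notch2, Jag1, Jag2 and Hey1, with a mean deviation of 0.19. Control 6 held the lowest value of all 16 mice in 4 members. In Notch1, Jag2, Hey1 and Heyl, however, control 6 lay above the control mean, and 7 of the 8 controls were above it in 4 to 6 of the 10 members.

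Endothelial markers were higher in deletion mice, as were the values of Notch1, Notch2, Notch3 and Jag1 but not of Notch4. The mean of 21 endothelial genes, none of them a member, was 6.92 ± 0.09 in controls (6.82 to 7.12) and 7.32 ± 0.22 in deletion mice (6.97 to 7.64), with 6 of the deletion mice beyond the highest control. Of the 21 genes, 11 rose and 0 fell, with a median difference of 0.47. Erg, which keeps endothelial identity, was higher by 0.52 (SE 0.08, limma adjusted p = 0.00276) in 8 of 8 deletion mice beyond the controls, and Sox18, an endothelial transcription factor, differed by -0.08 (SE 0.15). Deletion mouse 8, low in Notch1, Notch2 and Notch3, was also the lowest of its group in this mean, at 6.97.

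Markers of pericytes and smooth muscle were less far apart. The mean of 13 genes was 8.14 ± 0.10 in controls (8.04 to 8.34) and 8.27 ± 0.14 in deletion mice (8.07 to 8.53), a difference of 0.13. In that list 0 of 13 genes passed, and Pdgfrb, the pericyte receptor for PDGF-B, was the closest at 0.27 (SE 0.08, limma adjusted p = 0.0860). Satellite cells are another source of Notch transcripts, and the mean of their 9 markers ran from 6.25 to 6.50 in controls and from 6.20 to 6.42 in deletion mice. There 1 of 9 rose, Vcam1 (0.79, SE 0.12, limma adjusted p = 0.00406), an adhesion molecule that endothelium also carries, and the list's median difference was -0.14. Macrophage markers ran from 6.29 to 7.04 and from 6.55 to 7.92, and 3 of 10 rose: Mertk (0.42, SE 0.08, limma adjusted p = 0.0140), C1qa (0.56, SE 0.11) and Itgam (0.69, SE 0.17). Of 10 tendon and fibroblast genes, 2 fell, Kera (-1.19, SE 0.24) and Fmod (-0.49, SE 0.10, limma adjusted p = 0.0175). In that list 6 differences were below 0 and 4 above, the highest being the fibroblast collagen Col3a1 at 0.72 (SE 0.36, limma adjusted p = 0.311). The neutrophil gene S100a8 rose by 1.28 (SE 0.27, limma adjusted p = 0.0227), and Fabp4, a fatty acid binding protein of fat and of capillary endothelium, by 0.49 (SE 0.10, limma adjusted p = 0.0221). Their part in the members' differences was not tested.

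With the endothelial mean as a covariate in the fit, the difference fell to 0.06 in Notch1 (SE 0.10) and 0.02 in Jag1 (SE 0.14), and was 0.19 in Notch2 (SE 0.15) and -0.11 in Notch3 (SE 0.14). None of the 10 members passed, against 0.0368% of all genes (5 genes) called in that fit. Hey1 was the only member with an unadjusted p under 0.05 there, at -0.28 (SE 0.12, limma adjusted p = 0.457). The covariate differs between the groups itself, so this fit has wide errors. With the pericyte and smooth muscle mean in its place, Notch1 kept 0.23 (SE 0.08) and Jag1 was at 0.18 (SE 0.09), neither past the threshold.

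The members were also set on a scale relative to endothelial signal, by subtracting each mouse's endothelial mean before the fit. On it Notch1 differed by -0.15 (limma adjusted p = 0.119), Notch2 by -0.14 (adjusted p = 0.271), Notch3 by -0.18 (adjusted p = 0.0892) and Jag1 by -0.04 (adjusted p = 0.737). The other 6 members were lower: Hey1 by the most, at -0.57 (adjusted p = 5.41e-04, 8 of 8 deletion mice below every control), then Notch4 at -0.44 (adjusted p = 0.00108, 7 of 8) and Hes1 at -0.40 (adjusted p = 0.00459). Dll4 was at -0.35, Jag2 at -0.30 and Heyl at -0.29. Since 81.1% of all genes were lower on that scale, 6 of 10 members lower is no feature of the family. The share of all genes with the groups fully apart on that scale was not computed. The counts of mice are therefore no result about Hey1 or Notch4. What part the share of endothelial RNA has in the members' differences was not tested.

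Variation within the groups was compared between members. After each group's mean was subtracted, 40 of the 45 pairs of members had a correlation above 0 over the 16 mice, with a median r of 0.29 and a range from -0.43 to 0.76. The same share among other genes of these arrays was not computed. The closest pair was the ligand Jag1 with the target Hes1, with Pearson's r of 0.76 (permutation p = 2.9e-04, adjusted over the 45 pairs 0.0130) and Spearman's rho of 0.81 (permutation p = 1.8e-04, adjusted 0.0081). The relation held within controls (r = 0.74) and within deletion mice (r = 0.82), and r was 0.76 without deletion mice 1 and 2, the farthest from the median in Jag1. It was the only pair of the 45 with an adjusted p under 0.05. The mice that carried more Jag1 than their group thus carried more Hes1, although the groups differed by 0.37 in the former and 0.01 in the latter. Both also rose with the pericyte and smooth muscle mean, with r of 0.78 for Jag1 and 0.58 for Hes1 (adjusted p = 0.0743 by permutation for Hes1). The part of that mean in the pair was not tested.

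**Figure D4:**
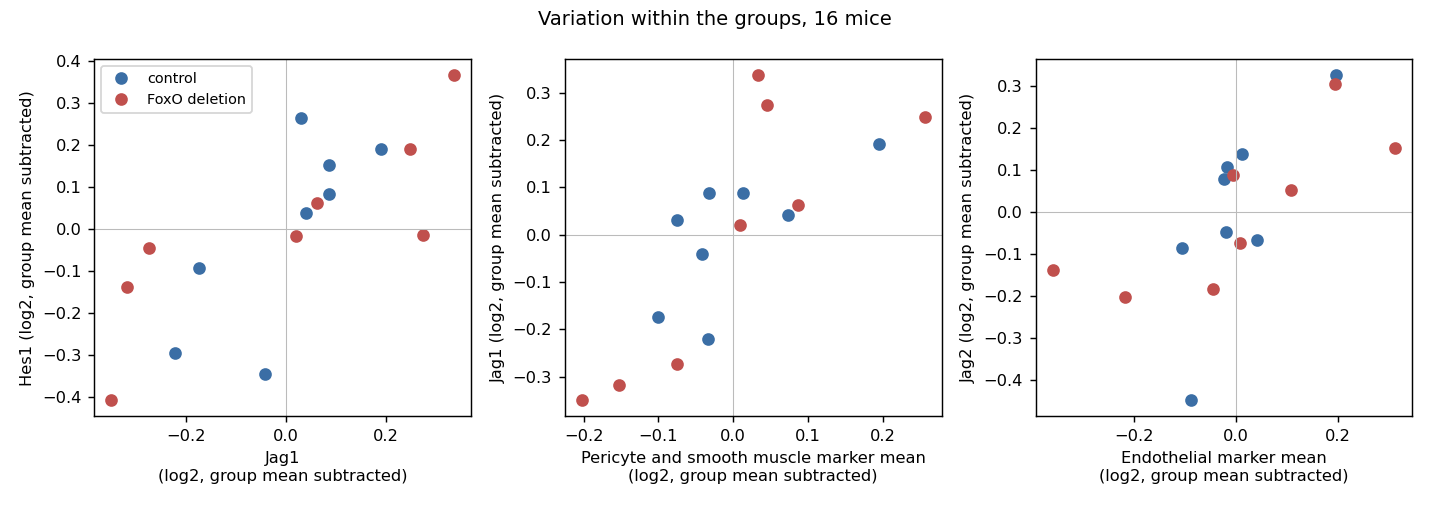
Values of 16 mice after subtraction of the group mean (log2 units): Hes1 against Jag1, Jag1 against the pericyte and smooth muscle marker mean, and Jag2 against the endothelial marker mean, with controls in blue and deletion mice in red. In each panel both groups rise together, with Pearson's r of 0.76, 0.78 and 0.68.

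The members were also set against the 2 marker means in the same way, 20 relations in all. Jag1 followed the pericyte and smooth muscle mean (Pearson's r = 0.78, permutation p = 0.00102, adjusted over the 20 relations 0.0164, and Spearman's rho = 0.83, adjusted 0.0059), with r of 0.68 in controls, 0.82 in deletion mice and 0.78 without the 2 mice farthest from the median. Jag2 followed the endothelial mean (r = 0.68, permutation p = 0.00164, adjusted 0.0164, and rho = 0.81, adjusted 0.0059), with r of 0.74 in controls, 0.79 in deletion mice and 0.61 without the 2 farthest mice. Each also rose with the other mean: r was 0.65 for Jag1 with the endothelial mean and 0.53 for Jag2 with the pericyte and smooth muscle mean. Both had an adjusted p of 0.0774 by permutation. The highest r of the 2 Jagged ligands was thus with different marker means, but whether they differ in this was not tested. No other relation had an adjusted p under 0.05. Notch1 and Notch3 with the endothelial mean came to r of 0.64 (adjusted p = 0.0722 by permutation) and 0.66 (adjusted p = 0.0743), resting mostly on the deletion mice, with r of 0.82 and 0.81 there and 0.29 and 0.14 in controls. All these measures come from the same arrays, so they share each array's quality.

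The rest of the pathway was read from 8 lists with 86 genes, of which 76 could be tested. Of these 76, 5 rose and 0 fell, a median difference of 0.04, against 1.53% of all genes higher. At an unadjusted p under 0.05, 13 of the 76 were higher and 4 lower, against 10.5% and 6.82% of all genes. The 5 were Egfl7, Adam10, Nrp1, Flt4 and Apln.

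Among other ligands, 1 of 4 tested rose. Egfl7, a secreted endothelial protein that binds Notch receptors and can oppose their ligands, was 6.15 ± 0.14 in controls and 6.60 ± 0.29 in deletion mice (SD, n = 8 each). The groups differed by 0.45 (SE 0.11, limma adjusted p = 0.0383), with 5 deletion mice above every control. Its call held in 4 of the 16 fits that left out 1 mouse. With the endothelial mean as a covariate the Egfl7 difference was -0.02 (SE 0.11, adjusted p = 0.971). The other 3 ligands tested, Dll1, Dlk1 and Dlk2, had differences below 0 and did not pass.

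In the cleavage machinery, 1 of 9 genes rose. Adam10, the protease of the first activating cut, was 8.41 ± 0.28 in controls and 8.88 ± 0.23 in deletion mice, a difference of 0.47 (SE 0.12, limma adjusted p = 0.0472) with 3 deletion mice above every control. That call held in only 2 of the 16 fits without 1 mouse, and it was lost with the endothelial covariate (0.41, SE 0.20, adjusted p = 0.520). Of the 9 differences, 5 were above 0 and 4 below. Ncstn, a subunit of gamma-secretase, differed by 0.22 (SE 0.07, limma adjusted p = 0.111). Aph1c, another subunit, went the other way, at -0.29 (SE 0.11, limma adjusted p = 0.193).

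Inside the nucleus, 0 of 16 genes of the RBPJ complex and its partners passed, with a median difference of 0.01. Rbpj itself, the DNA-binding factor, differed by -0.05 (SE 0.08), and the coactivator Maml3, the closest to the threshold, by 0.37 (SE 0.12, limma adjusted p = 0.115). The other Hes and Hey genes also gave 0 of 7, with 6 of 7 differences below 0 and Hes7 the closest at -0.16 (SE 0.07, limma adjusted p = 0.264). Neither glycosylation of the receptors (0 of 5, Lfng at 0.12, SE 0.08) nor trafficking and turnover (0 of 14, Dtx3 at 0.20, SE 0.08) held a gene past the threshold.

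The arterial and tip cell genes tied to endothelial Notch had the most calls, 3 of 14, and a median of 0.16. Of all genes, 1.53% were called higher. Of the 14 differences, 11 were above 0 and 3 below. The lowest was Cxcr4 at -0.35 (SE 0.11, limma adjusted p = 0.126), with 4 deletion mice below every control. Apln, the tip cell peptide apelin, rose from 4.36 ± 0.31 to 5.55 ± 0.54 (1.19, SE 0.19, limma adjusted p = 0.00564), and 7 of 8 deletion mice exceeded every control. Flt4, the VEGF-C receptor that Notch restrains in sprouting vessels, rose by 0.39 (SE 0.08, limma adjusted p = 0.0224), also in 7 of 8. Nrp1, a VEGF co-receptor of tip cells, rose by 0.32 (SE 0.08, limma adjusted p = 0.0465) in 7 of 8. The calls of Apln and Flt4 held in all 16 fits without 1 mouse and that of Nrp1 in 3. All 3 calls were lost with the endothelial mean as a covariate, where Apln was at 0.56 (SE 0.27, limma adjusted p = 0.505), Flt4 at 0.15 (SE 0.12, adjusted p = 0.722) and Nrp1 at 0.11 (SE 0.12, adjusted p = 0.793). The mural genes tied to Notch3 gave 0 of 7, all 7 differences being above 0, with a median of 0.13. All 7 are also among the 13 pericyte and smooth muscle markers above, so this is no separate result. Without the 6 mice with high Alb, 0 of the 76 genes passed and 7 of all genes did, and Apln was then at 0.86 (SE 0.21) and Egfl7 at 0.24 (SE 0.12).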

How the data were processed

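Per the submitters' processing notes, the authors made the deposited log2 values with RMA in the oligo package. No versions, array design, build or scan dates are given in the sources used here. RMA brings arrays towards a common distribution, which reduces a shift of all transcripts, and compresses fold changes of dim probe sets. Array medians still differed, and centring changed each member's difference by -0.053. The number of arrays limits the precision.

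Of 41345 probe sets, 23521 had 1 gene symbol and were named, 1814 had several and 16010 none. 1 further probe set names Dll4 beside another gene and was not used. A probe set had to exceed the array median in at least 8 of 16 mice, and the brightest per gene was used. Groups came from the labels, which call each mouse a separate biological replicate. limma 3.58.1 (R 4.3.3) compared 8 with 8 mice, two-sided, group as the only term, with Benjamini-Hochberg adjustment over all 13601 genes and a threshold of 0.05. Every adjusted p of a difference is limma's. Exact permutation used all 12870 splits of 1 gene's values (smallest p 1.55e-04). Correlations were computed on values with the group mean subtracted, and their p came from 100000 permutations within groups. The code was tested on simulated data.

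The members and lists were chosen with earlier results of these data known. Named were all members, each pathway list's genes past the threshold or else its gene of smallest p, the leading marker genes and the FoxO genes. The rule's 3 genes most like each member past the threshold gave none, since no member passed. Rbpj, Dll1, Dlk1, Dlk2, Ncstn, Aph1c, Cxcr4, Alb, C1qa, Itgam and Kera were named after their values were seen. Chosen after the data were examined were leaving out the mice with high Alb, subtracting the endothelial mean, and the GC box. Alternatives covered filters, scaling, probe sets, variance, array weights, marker covariates, the threshold, replicate numbers and leaving out each mouse.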

Additional observations from a re-analysis of the deposited data

Results flagged for a closer look

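Of 50 groups of 8 mice examined (25 genes in both groups), 4 held a mouse far from the others by Dixon's criterion, and chance alone gives about 1 in 20. None was in the 10 Notch genes. Foxo1 stood at 8.23 in deletion mouse 4, against 7.41 in the nearest mouse of its group. Egfl7 stood at 6.49 in control 4, against 6.16 in the nearest control. Flt4 was low in control 3, at 5.54 against 5.76. Nrp1 was low in control 7, at 8.19 against 8.45. Control 4 is also the mouse with the highest control values of Notch1, Notch2, Jag1, Jag2 and Hey1.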

How the results depend on the processing

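The members called numbered 0, and 1 with the filter at the 75th percentile (Notch1, 0.26, 6 members tested), 2 with array weights (Notch1 and Jag1), 2 at an adjusted p under 0.10, and 0 to 3 without 1 mouse. Groups were apart in 0 members under these settings, and in 1 (Hey1) with the endothelial mean subtracted. For that scale the share of all genes with groups apart was not computed. Pathway genes called, 5 of 76, numbered 2 with no filter, 3 with the 75th percentile filter, 3 with centred arrays, 3 with quantile normalization, 0 with either marker covariate, 0 without high Alb and 2 to 5 without 1 mouse. The 249 genes called became 137 with no filter, 5 with the endothelial and 18 with the pericyte covariate, 505 at 0.10, 7 without high Alb, 680 without deletion mouse 8, and 107 (without deletion mouse 6) to 239 (without control 4) without any other single mouse. Of the calls, 83.5% were higher, against 65.3% after centring and 72.1% after quantile normalization.

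Signs turned in small differences. Centring gave Dll4 -0.0037 and Hes1 -0.045, quantile normalization Hes1 -0.035, and array weights Hes1 -0.0029. The endothelial covariate gave Notch3 -0.11, Dll4 -0.17, Jag2 -0.23, Heyl -0.11, Hes1 -0.19, Foxo1 -0.052, Egfl7 -0.020 and Lfng -0.011, and the pericyte covariate Jag2 -0.014, Heyl -0.011 and Hes1 -0.13. Without high Alb, Dll4 was -0.11, Jag2 -0.038 and Foxo1 -0.12. Without 1 mouse, Hes1 ran from -0.044 to 0.066, Dll4 from -0.0043 to 0.10, Notch4 from -0.068 to 0.012, Foxo1 from -0.052 to 0.12 and Sox18 from -0.16 to 0.013. Notch1 stayed at 0.22 to 0.28, Notch2 at 0.22 to 0.33, Notch3 at 0.17 to 0.29, Jag1 at 0.32 to 0.42 and Hey1 at -0.19 to -0.11. The causes were not tested.

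Replicate numbers were not used to pair the mice in the main fit. The correlation of same-numbered mice ran from -0.08 to 0.25, 4 of 8 were over 0.1, and 3 of 8 mice correlated best with their own number. These values do not settle whether the numbers pair the mice. The replicate block called 213 genes, 0 members and 2 pathway genes (Apln and Flt4).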
